A study of Mus musculus with 61 samples.

Results

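The genes described here are those for 5 neuropeptides, cholecystokinin (Cck), vasoactive intestinal peptide (Vip), pituitary adenylate cyclase-activating polypeptide or PACAP (Adcyap1), neurotensin (Nts) and galanin (Gal), and for 4 of their receptors, Cckbr, Adcyap1r1, Ntsr1 and Ntsr2. They were taken as every probe set annotated to exactly 1 of these genes, which gave 13 probe sets for 9 genes, of 34945 probe sets that name a single gene and 18193 genes so named. A probe set is a group of short oligonucleotides that together read the transcript of a gene. Where a gene had several, the brightest over all arrays led: 1454770_at over 1460663_at for Cckbr, 1423427_at over 1441778_at for Adcyap1, and 1429022_at over 1439042_at and 1450799_at for Adcyap1r1. The remaining genes had a single one, namely 1419473_a_at for Cck, 1428664_at for Vip, 1422860_at for Nts, 1420799_at for Ntsr1, 1417151_a_at for Ntsr2 and 1460668_at for Gal. All 13 had signal enough to be tested.

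RNA was measured on 61 Affymetrix mouse arrays of short oligonucleotide probes. They covered the pituitary gland, the hypothalamus, the hippocampus, the periaqueductal gray (pag) and the bed nucleus of the stria terminalis (bnst) of wild type males, 8 weeks old, from 6 inbred strains: FVB/NJ, DBA/2J, C57BL/6J, 129S6/SvEvTac, C3H/HeJ and A/J. The labels name no transgene and no treatment, and the question was how far strain and region go with expression. Each of the 30 groups of strain and region had 2 arrays, except the C3H/HeJ bnst with 3. An array held the tissue of 1 mouse for the hippocampus, 2 for most hypothalamus and pag arrays and 1 for a single array of each, 2 or 3 for the bnst, and 5 for the pituitary gland, so that arrays from pools average over mice. Signals are on a linear scale on which the mean of an array lay between 180.5 and 200.5, and 12.8 is the signal under which the lowest 20% of all values fell; differences near it are poorly measured. A signal cannot be compared between probe sets, so levels are set against each other only within a probe set.

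Neuropeptides are cut from larger precursors, stored in dense-core vesicles and released to act on G protein-coupled receptors, usually beside a fast transmitter. CCK is abundant in forebrain neurons and its B receptor is the main CCK receptor of the brain, VIP marks a class of cortical and hippocampal interneurons as well as neurons of the suprachiasmatic nucleus, and PACAP, a relative of VIP, acts through its own receptor, the product of Adcyap1r1, on adenylate cyclase. Neurotensin binds a high-affinity receptor, Ntsr1, carried by neurons, and a low-affinity one, Ntsr2, rich in astrocytes, while galanin is made by hypothalamic and brainstem neurons and by hormone cells of the pituitary gland.

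The start regions of the peptide genes are shown because their transcription is a classic target of cAMP signaling, the pathway that the PACAP and VIP receptors feed. All 9 genes matched a RefSeq window (GRCm38.p6) running from 250 bases before the annotated start to 50 after it. The sequences below run from 250 bases before to 30 after the start on the gene's strand, with capitals marking the cAMP response element half-site TGACG or its complement CGTCA: chr9:121495665-121495944 (minus strand) for Cck, chr10:5638968-5639247 (plus strand) for Vip, chr17:93198767-93199046 (plus strand) for Adcyap1, whose upstream window of 2 is shown, chr10:102490389-102490668 (minus strand) for Nts and chr19:3414515-3414794 (minus strand) for Gal.
Cck: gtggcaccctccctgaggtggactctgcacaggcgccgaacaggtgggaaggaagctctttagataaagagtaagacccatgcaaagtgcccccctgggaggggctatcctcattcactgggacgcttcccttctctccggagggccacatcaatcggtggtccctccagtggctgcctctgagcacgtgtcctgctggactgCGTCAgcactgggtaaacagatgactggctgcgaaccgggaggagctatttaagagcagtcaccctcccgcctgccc
Vip: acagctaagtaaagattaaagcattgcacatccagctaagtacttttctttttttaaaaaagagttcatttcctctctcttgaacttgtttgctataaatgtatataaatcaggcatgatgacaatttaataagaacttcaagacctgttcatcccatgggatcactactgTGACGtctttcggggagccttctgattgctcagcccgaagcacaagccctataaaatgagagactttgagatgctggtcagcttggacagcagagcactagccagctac
Adcyap1: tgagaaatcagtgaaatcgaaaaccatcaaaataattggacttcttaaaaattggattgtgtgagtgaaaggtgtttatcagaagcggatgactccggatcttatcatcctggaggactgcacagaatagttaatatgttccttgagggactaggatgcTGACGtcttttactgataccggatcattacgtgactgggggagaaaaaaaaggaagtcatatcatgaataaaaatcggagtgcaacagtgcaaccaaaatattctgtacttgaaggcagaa
Nts: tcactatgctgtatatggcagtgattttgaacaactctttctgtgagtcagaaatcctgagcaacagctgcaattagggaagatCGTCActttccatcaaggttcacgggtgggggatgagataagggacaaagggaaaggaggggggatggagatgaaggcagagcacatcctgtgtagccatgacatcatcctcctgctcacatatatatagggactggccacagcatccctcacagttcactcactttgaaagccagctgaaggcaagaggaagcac
Gal: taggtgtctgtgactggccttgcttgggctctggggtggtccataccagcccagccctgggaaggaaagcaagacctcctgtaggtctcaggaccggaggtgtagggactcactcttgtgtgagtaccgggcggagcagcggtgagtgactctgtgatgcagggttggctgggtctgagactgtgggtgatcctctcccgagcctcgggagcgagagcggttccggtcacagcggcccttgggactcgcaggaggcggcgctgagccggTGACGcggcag
On either strand, the half-site occurred in the windows of 5 of 5 peptide genes and, among the 4 receptor genes, in that of Ntsr1 alone, whereas 20.8% of all 32851 windows held it. It began 47 bases before the start of Cck, 79 before that of Vip, 91 before that of Adcyap1 and 166 before that of Nts, and 20 bases into Gal. The full palindrome TGACGTCA, which contains the half-site, was in none of the 9 genes' windows and in 1.79% of all windows. Of the other letters searched, TGACTCA was found in Nts (5.2% of windows), TATAAA in Vip and Adcyap1 (13.6%) and CACGTG in Cck, Cckbr and Ntsr2 (7.15%). For Adcyap1 the TATAAA match was in the window that is not shown. The motifs were chosen with the expression results known, and a match describes letters in a window and nothing about binding.

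Tissue markers set the frame for the values that follow. Hypothalamic, hippocampal, midbrain and pituitary marker sums were each highest on the arrays labelled with their own region, with no overlap with any other region. The 4 suprachiasmatic nucleus markers instead summed to 534.9 to 727.2 in the hypothalamus. In the bnst they summed to 1275 to 2688 and in the pituitary gland to 1228 to 1593. Rora alone had a mean of 1759 in the bnst against 466.6 in the hypothalamus, and Six6 had one of 827.1 in the pituitary gland. Six6, Prok2 and Lhx1 had higher means in the hypothalamus (72.3, 35.4 and 67.9) than in the bnst (11.7, 28.0 and 21.1). Pituitary marker sums, at least 37950 in the pituitary gland, reached 7485 in the hypothalamus, 5918 in the pag, 4139 in the bnst and 2831 in the hippocampus. The part of these transcripts in the values below was not tested. The bnst arrays carried hypothalamic markers too, with sums of 4840 to 10910 against 175.2 to 467.8 in hippocampus and pag. The bnst arrays also carried thalamic markers (5 of 5 higher than in each other region by limma) and choroid plexus markers whose summed signal ranged from 274.7 to 9900. On the pituitary gland arrays the 3 oligodendrocyte markers summed to 75.9 to 225.5, except on C3H/HeJ replicate 2, where they summed to 4161. In such tissue samples, fewer cells of a type and less RNA per cell cannot be told apart.

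Region divided all of these genes. A moderated F test (limma) over the 5 region means called all 13 probe sets at an adjusted p under 0.05, where 71.7% of all 44065 probe sets tested were called, and the largest adjusted p was 8.25e-05, for the second Cckbr probe set, which was not called with a floor of 50 (adjusted p = 0.0893). Of 90 comparisons between a pair of regions for the leading probe sets, 84 were called, and 114 of 130 over all 13 probe sets, against a background of 43.0%. Over all probe sets the share called was 33.7% for bnst against hippocampus, 23.1% for bnst against hypothalamus and also against pag, 36.8% for hippocampus against hypothalamus, 42.2% for hippocampus against pag and 26.2% for hypothalamus against pag. Against the pituitary gland it was 62.0% for bnst, 62.7% for hippocampus, 60.3% for hypothalamus and 60.1% for pag. In the hypothalamus every gene was higher than in the pituitary gland (9 of 9 leading probe sets, background 23.7% in that direction), and every gene but Cck was higher than in the bnst (8 of 9, background 13.5%), which went the other way (background 9.52%). The hippocampus was below the hypothalamus for 6 genes (background 21.3%) and above it for Cck alone (background 15.6%).

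**Figure D1:**
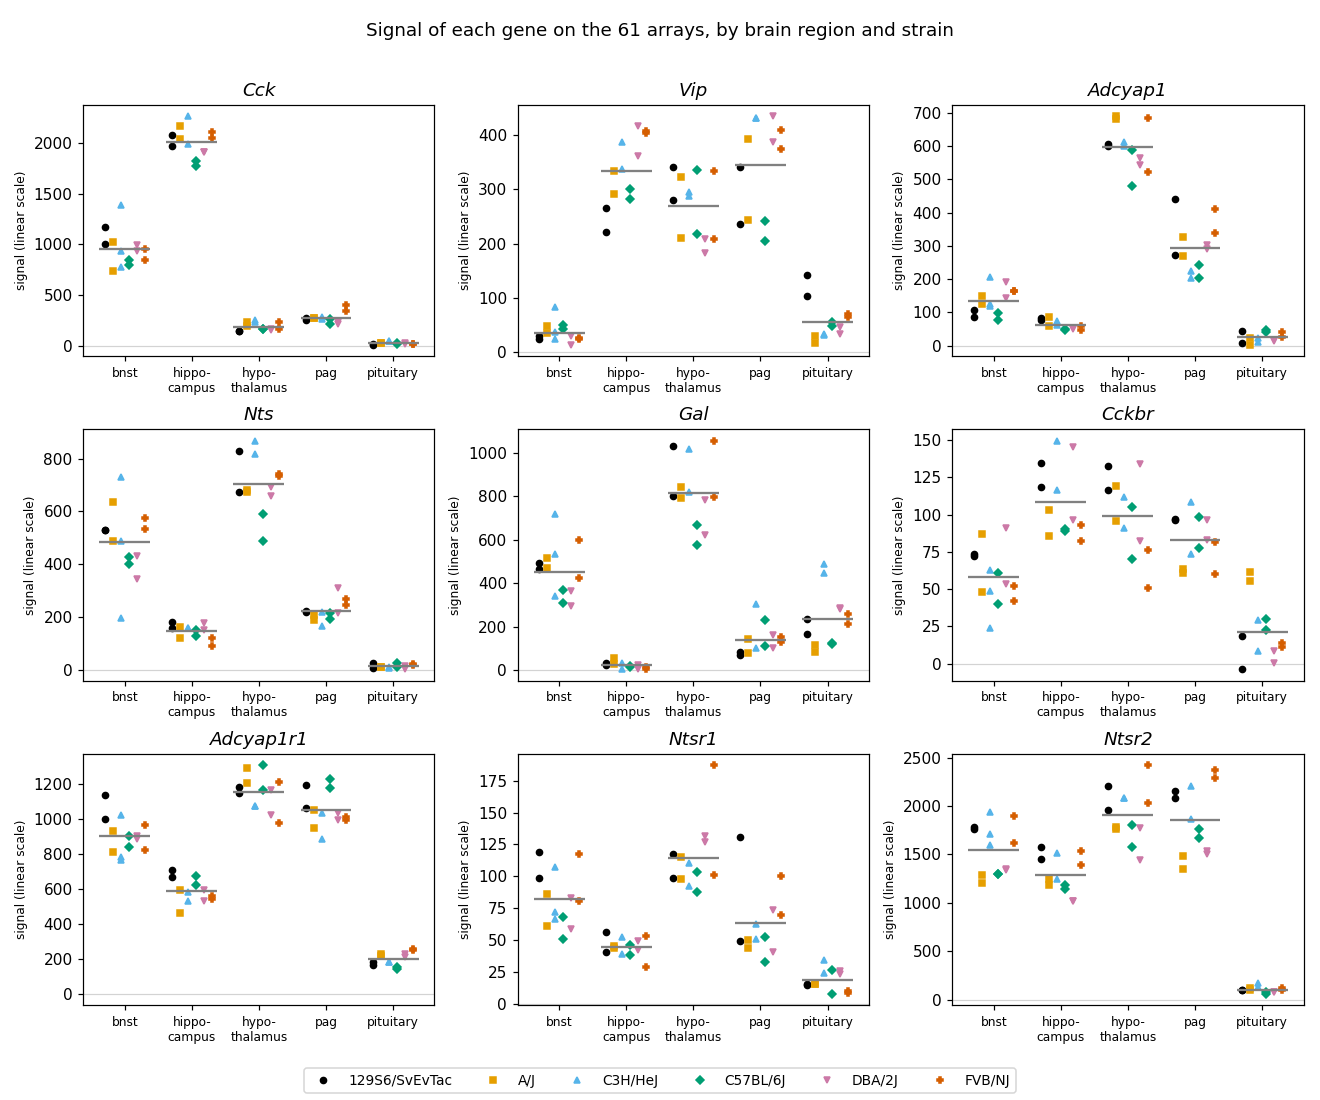
Signal of the leading probe set of each of the 9 genes (vertical axis, linear scale, own range per panel) in the 5 tissues (horizontal axis) on all 61 arrays. Points are arrays, with color and shape for the strain, and grey lines are means over the arrays of a tissue; Cck is highest in the hippocampus, while Adcyap1, Nts and Gal are highest in the hypothalamus and Vip is low in the bnst.

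Cck was the only member called higher in the hippocampus than in each other tissue. Its signal there ran from 1772 through a median of 2014 to 2264 over 12 arrays. In the bnst it ran from 732.1 through 936.8 to 1387 over 13 arrays, in the pag from 213.1 through 262.9 to 397.3, in the hypothalamus from 139.3 through 164.1 to 249.4, and in the pituitary gland from 9.08 through 20.4 to 42.0. Hippocampus, bnst and pituitary gland each stood clear of every other tissue, while the pag and hypothalamus overlapped. The hippocampus exceeded the bnst by 2.14-fold, the bnst the pag by 3.49-fold and the pag the hypothalamus by 1.47-fold (hypothalamus minus pag -0.56 on the log2 scale, SE 0.078, adjusted p = 7.17e-07 by limma), so that all 4 neighbors in the order differed. The step from the hypothalamus to the pituitary gland, 8.73-fold, ends near the floor of the scale.

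Vip had its higher signals in 3 tissues and was scarce in the other 2. It ran from 222.5 through 335.5 to 416.8 in the hippocampus, from 204.7 through 381.2 to 434.6 in the pag, and from 182.7 through 284.6 to 341.5 in the hypothalamus. These 3 ranges overlapped and no pair was called: hippocampus and pag differed by -0.02 on the log2 scale (95% interval -0.31 to 0.27), hippocampus and hypothalamus by 0.32 (0.03 to 0.61, adjusted p = 0.0780) and hypothalamus and pag by -0.34 (-0.63 to -0.05, adjusted p = 0.0761). The differences of the hypothalamus from hippocampus and pag were called with a floor of 50 (adjusted p = 0.00475 and 0.00465) and with log2(signal + 50) (0.0058 and 0.00523). They were also called on leaving out any of 5 single arrays (adjusted p from 0.0299). These were C3H/HeJ bnst replicate 2 or 3, or A/J replicate 2, C57BL/6J replicate 1 or FVB/NJ replicate 2 of the hypothalamus. In the bnst Vip ran from 14.3 through 30.2 to 84.0, all 13 arrays under the lowest of those 3 tissues, and was 8.07-fold below the hypothalamus (SE 0.14 on the log2 scale, adjusted p = 1.50e-18). The pituitary gland, at 16.9 through 47.8 to 142.5, was 1.48-fold above the bnst (adjusted p = 0.000652). The lower bnst signals lay near the floor of the scale. Over the other settings bnst minus hypothalamus ranged from -3.09 to -1.90 on the log2 scale, and bnst minus pituitary gland from -0.64 to -0.26.

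Adcyap1 followed another order. It ran from 479.7 through 599.7 to 689.5 in the hypothalamus, from 202.6 through 281.8 to 441.6 in the pag, from 78.7 through 125.4 to 206.7 in the bnst, from 48 through 59.5 to 86.1 in the hippocampus and from 3.19 through 24.3 to 46.7 in the pituitary gland. The hypothalamus and the pituitary gland stood clear of the rest, and the neighboring tissues in between overlapped at their edges. Each step was called: 2.08-fold from hypothalamus to pag, 2.22-fold from pag to bnst, 2.09-fold from bnst to hippocampus and 2.61-fold from hippocampus to pituitary gland, with adjusted p between 9.87e-11 and 3.71e-07. The last step ends at the floor, with 3 of 12 pituitary arrays under it, and its log2 difference of 1.39 was 0.31 with a floor of 50 (adjusted p = 0.00150). Set beside Vip, which encodes a related peptide, the PACAP gene was low in the hippocampus, where Vip was high.

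Nts, which encodes the precursor of neurotensin, was also highest in the hypothalamus, at 486.0 through 687.3 to 867.9. The bnst followed at 197.5 through 487.6 to 729.3, the pag at 167.2 through 217.0 to 308.0 and the hippocampus at 89.1 through 153.2 to 181.0. In the pituitary gland Nts reached no more than 26.5, and 7 of 12 arrays lay under the floor. The bnst overlapped the hypothalamus widely, yet was 1.48-fold lower (log2 difference -0.57, SE 0.13, adjusted p = 0.00106). The lowest bnst array, C3H/HeJ replicate 2, also had the highest thalamic marker sum of the bnst arrays (5201, others from 2268) and the lowest striatal sum (321.4); their part in its Nts level was not tested, and without it the difference was -0.48 (adjusted p = 0.000312). The highest bnst array was replicate 3 of the same strain, whose choroid plexus sum was the lowest of the 13.

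Gal too was highest in the hypothalamus. It ran from 573.7 through 797.4 to 1056 in the hypothalamus, from 294.4 through 463.1 to 719.2 in the bnst, from 84.2 through 222.0 to 487.8 in the pituitary gland, from 70.0 through 118.1 to 306.2 in the pag and from 4.09 through 21.1 to 57.01 in the hippocampus. The hippocampus lay clear below the other tissues, and each other tissue overlapped its neighbor in this order. Gal fell 1.85-fold from hypothalamus to bnst (adjusted p = 8.96e-05), 2.12-fold from bnst to pituitary gland (adjusted p = 5.88e-07), 1.63-fold from pituitary gland to pag (log2 difference -0.70, SE 0.17, adjusted p = 0.000479) and 5.98-fold from pag to hippocampus (adjusted p = 2.29e-15). The last of these steps ends near the floor, with 3 of 12 hippocampal arrays under it, and ranged from -2.86 to -1.31 on the log2 scale over the other settings. Gal was the single leading probe set with more signal in the pituitary gland than in the pag or in the hippocampus. Vip and Gal were the pair that did not have its lowest level in the pituitary gland.

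**Figure D2:**
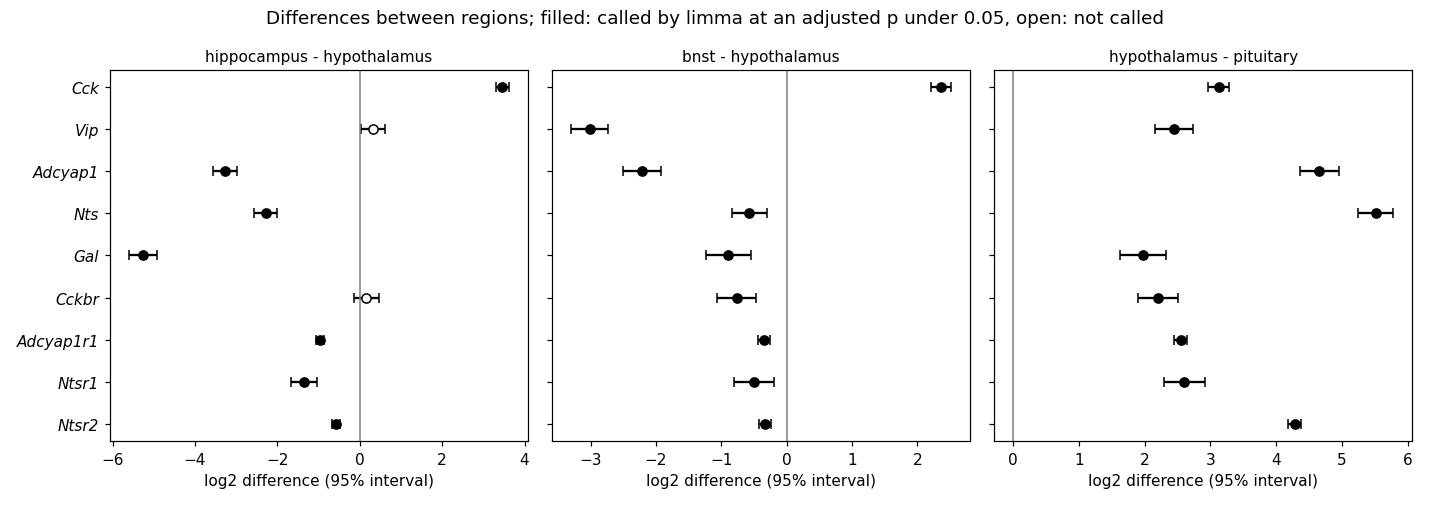
Log2 difference between 2 tissues (horizontal axis) for the leading probe set of each gene (vertical axis), with 95% intervals from limma over all 61 arrays. Filled points were called at an adjusted p under 0.05; Cck is the gene to the right of 0 in bnst against hypothalamus, and all 9 lie to the right in hypothalamus against pituitary gland.

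Among the receptors, Adcyap1r1, which encodes the PACAP receptor coupled to adenylate cyclase, was read in all 5 tissues. Its lowest, median and highest signals were 979.6, 1168 and 1310 in the hypothalamus, 888.2, 1036 and 1232 in the pag, 764.6, 903.7 and 1142 in the bnst, 464.7, 587.9 and 712.1 in the hippocampus and 144.0, 196.5 and 256.1 in the pituitary gland. Hypothalamus, pag and bnst overlapped, and hippocampus and pituitary gland stood apart below them. The hypothalamus exceeded the pag by 1.10-fold (log2 difference 0.13, SE 0.048, adjusted p = 0.0359), a call that ended on leaving out any of 12 single arrays (adjusted p up to 0.0981). With arrays scaled to a common median neither that step nor the one from pag to bnst was called (adjusted p = 0.0800 and 0.291), while the fall from bnst to hippocampus, 1.55-fold, held under every alternative run.

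Ntsr2, the neurotensin receptor of astrocytes, was not called between the hypothalamus, at 1444 through 1883 to 2420, and the pag, at 1348 through 1810 to 2369 (log2 difference 0.05, 95% interval -0.04 to 0.15, adjusted p = 0.461). The bnst lay at 1202 through 1598 to 1942 and the hippocampus at 1014 through 1242 to 1571. All 4 brain tissues overlapped, although the bnst was 1.21-fold below the pag (adjusted p = 2.89e-05, and 0.0689 with arrays scaled to a common median) and 1.18-fold above the hippocampus (adjusted p = 9.36e-05). The pituitary gland, at 60.7 through 97.9 to 168.2, was 13.1-fold below the hippocampus without overlap. The 4 astrocyte markers were low in the pituitary gland as well, with sums of 280.3 to 534.1 against 2594 to 4849 elsewhere, and their part was not tested. Among the brain tissues their order was another, with a median sum of 3680 in the hippocampus and of 2814 in the pag.

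Ntsr1, the neuronal receptor of higher affinity, had a weak signal everywhere. It ran from 87.8 through 106.8 to 187.2 in the hypothalamus, from 50.7 through 80.8 to 118.8 in the bnst, from 32.7 through 51.4 to 131.2 in the pag, from 28.7 through 44.4 to 56.6 in the hippocampus and from 7.88 through 15.7 to 34.6 in the pituitary gland. All neighbors overlapped. The step from hypothalamus to bnst was 1.41-fold (adjusted p = 0.0148, and 0.0531 with a common median), that from bnst to pag 1.36-fold (adjusted p = 0.0322, lost without any of 12 single arrays, C3H/HeJ bnst replicate 3 among them) and that from pag to hippocampus 1.33-fold (adjusted p = 0.0301, lost without any of 11, and 0.165 with a common median). The hypothalamus exceeded the pag by 1.91-fold and the hippocampus by 2.55-fold under limma (adjusted p = 1.15e-05 and 3.22e-09).

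Cckbr, which encodes the brain CCK receptor, was weak and had another order of tissues than Cck. It ran from 82.1 through 99.7 to 149.5 in the hippocampus, from 50.4 through 100.3 to 134.1 in the hypothalamus, from 60.4 through 82.2 to 108.6 in the pag, from 24.0 through 53.6 to 90.8 in the bnst and from -3.76 through 16.2 to 61.1 in the pituitary gland. Hippocampus and hypothalamus differed by 0.16 on the log2 scale (95% interval -0.14 to 0.46, adjusted p = 0.493) and hypothalamus and pag by 0.22 (-0.08 to 0.53, adjusted p = 0.297). The difference of 0.38 between hippocampus and pag was called (adjusted p = 0.0372) but lost without any of 12 single arrays (adjusted p up to 0.0873). These 3 tissues and the bnst overlapped. The bnst, where Cck was second highest, had 1.69-fold less Cckbr than the hypothalamus (SE 0.15 on the log2 scale, adjusted p = 0.000125). The second Cckbr probe set, with medians from 24.9 to 51.1, placed the bnst below the pag too (adjusted p = 0.00307).

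As a description over the 30 group means of log2 signal, several of these genes had like profiles. Without the pituitary gland (24 groups of strain and region, which share 4 tissues), Pearson's r was 0.95 between Nts and Gal, 0.91 between Nts and Ntsr1 and 0.87 between Adcyap1 and Adcyap1r1. Cck ran opposite to Adcyap1 (r = -0.94), and Cck and Cckbr had r = -0.04. With the pituitary gland, the value for Nts and Gal was 0.35, and that for Cck and Cckbr was 0.70. Groups of the same tissue are not independent.

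Among 11690 genes with a mean signal of at least 50, the profile closest to that of Ntsr2 was Gjb6 (r = 0.99 over 30 groups), the astrocyte connexin, followed by Fgfr3 and the urea transporter Slc14a1. For Cck the closest were Btbd3 (r = 0.99), Adcy1, a calcium-stimulated adenylate cyclase, and Car4, a membrane-bound carbonic anhydrase. For Gal it was Ecel1 (r = 0.95), a membrane metallopeptidase, then Fnbp1l and Ghr, the growth hormone receptor. Nts came closest to Gabrg1 (r = 0.98), a GABA-A receptor subunit, Adcyap1r1 to Lonrf2 (r = 0.99), Adcyap1 to Aard (r = 0.96) and Ntsr1 to Xpr1 and to Nts itself (r = 0.94 for both). Vip and Cckbr had the least close partners, Nwd2 (r = 0.85), with Bdnf next, and Gnaz (r = 0.93), a G protein alpha subunit. These values include the pituitary gland, where most members had their lowest level. Ntsr2 and Adcyap1r1, for scale, had r = 0.95 over the 30 groups and 0.69 without the pituitary gland.

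Strain was called for fewer of these probe sets than region. The strain F test called 7 of 13 probe sets (background 39.2%): those of Ntsr2 (adjusted p = 6.73e-12), Cck (2.41e-05), Gal (0.0481), the leading one of Cckbr (0.0213), the second of Adcyap1 (0.00835), and 1439042_at and 1450799_at of Adcyap1r1 (0.000408 and 0.00490). The leading probe sets of Vip, Adcyap1, Adcyap1r1, Nts and Ntsr1 were not called, with adjusted p from 0.0761 to 0.663, although over the 4 brain tissues alone Adcyap1 and Adcyap1r1 were (0.00758 and 0.00925). Adcyap1r1 was also called by strain with quantile normalization (0.0312), with the replicate number as a block (0.0104), on leaving out any of 5 single arrays (0.0107 without C3H/HeJ bnst replicate 3, and up to 0.0452) and by the methods' regression (0.0251). The call for Gal ended on leaving out any of 47 of the 61 arrays. It also ended with the floor at the 10th percentile (0.294) and over the 4 brain tissues alone (0.388). That for Cckbr ended without FVB/NJ bnst replicate 1, hypothalamus replicate 1 or pag replicate 2 (adjusted p up to 0.0665) and with the floor at the 10th percentile (0.120). FVB/NJ had less Cckbr than the other 5 strains by -0.49 on the log2 scale (SE 0.13, adjusted p = 0.00782, and 0.0947 with the lower floor).

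Ntsr2 was the member whose strains differed in every tissue. In the bnst, the arrays of 129S6/SvEvTac (1760 and 1785), of C3H/HeJ (1598, 1713 and 1942) and of FVB/NJ (1619 and 1896) lay above all arrays of DBA/2J (1351 and 1333), A/J (1283 and 1202) and C57BL/6J (1293 and 1299). In the pag the same 3 strains, at 2082 and 2151 for 129S6/SvEvTac, 1862 and 2209 for C3H/HeJ, and 2292 and 2369 for FVB/NJ, again lay clear of DBA/2J (1499 and 1531), C57BL/6J (1668 and 1758) and A/J (1348 and 1481). The hippocampus and hypothalamus gave the same split of the strain means, with a single overlap of arrays in the hippocampus between C3H/HeJ replicate 1 (1240) and A/J replicate 2 (1244). In the pituitary gland C3H/HeJ was highest (132.8 and 168.2) and C57BL/6J lowest (60.7 and 73.8), and A/J (115.0 and 98.6) was no longer among the low strains. The signal of 168.2 was on C3H/HeJ replicate 2, the array with an oligodendrocyte sum of 4161, whose part was not tested. Leaving out that array gave limma adjusted p of 2.23e-06 for strain within the pituitary gland and 0.0267 for the interaction.

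Within tissues, limma called Ntsr2 between strains in the bnst (adjusted p = 0.000321, background 19.3%), hippocampus (0.00333, background 10.6%), hypothalamus (0.0146, background 10.9%), pag (4.92e-05, background 13.3%) and pituitary gland (2.64e-08, background 31.9%). Over all tissues C3H/HeJ, FVB/NJ and 129S6/SvEvTac were higher than the other 5 strains by 0.29, 0.26 and 0.20 on the log2 scale, and DBA/2J, C57BL/6J and A/J lower by -0.32, -0.28 and -0.16, each with an SE of 0.040 or 0.041 and adjusted p from 2.38e-07 to 0.00421. In the 6 comparisons of a strain with the other 5, 12 of 54 were called over the leading probe sets (background 15.1%), and 6 of the 12 were those of Ntsr2. The background was 18.7% for 129S6/SvEvTac, 15.1% for A/J, 10.5% for C3H/HeJ, 22.0% for C57BL/6J, 13.5% for DBA/2J and 11.0% for FVB/NJ. With arrays scaled to a common median the calls for 129S6/SvEvTac and A/J ended (adjusted p = 0.0689 and 0.0590), as did those within the hippocampus and hypothalamus (0.205 and 0.369), and the hypothalamic call also ended without DBA/2J replicate 2 or FVB/NJ replicate 1 (0.0688 and 0.0535). Of the 4 astrocyte markers, 3 were called by strain; 2 of 4 were lower in A/J, a strain low in Ntsr2, none was called in DBA/2J, another low in it, or in C3H/HeJ, a strain high in it, and the median log2 difference was 0.10 in each of the latter. Their sums in the pag were highest in DBA/2J (3349 and 3584), where Ntsr2 was low, and in the hypothalamus in FVB/NJ (4849 and 4672), where it was high; their part in the strain differences was not tested.

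**Figure D3:**
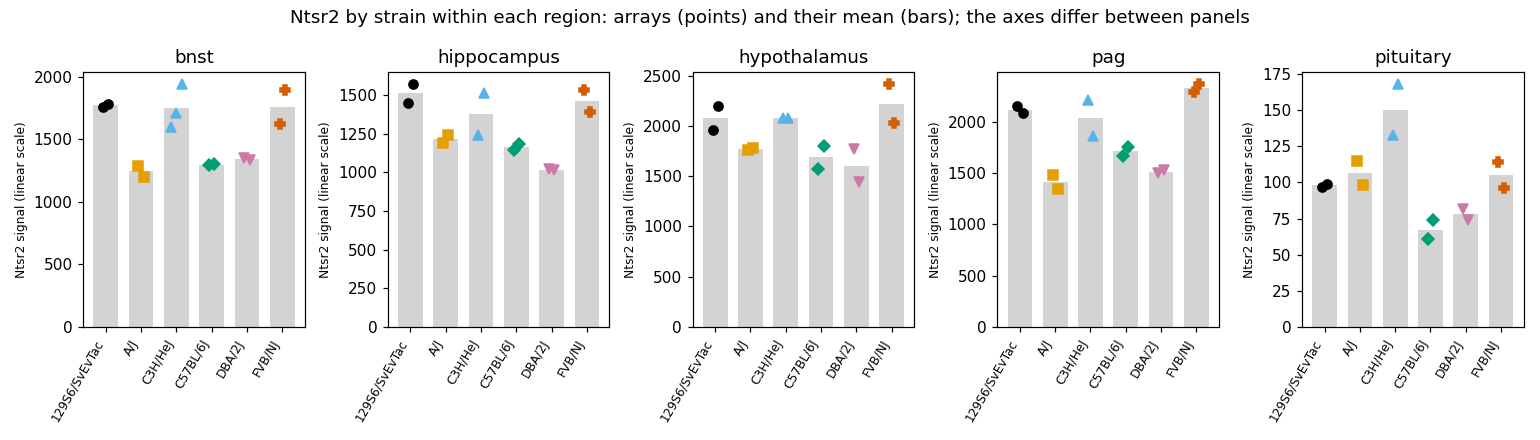
Ntsr2 signal (vertical axis, linear scale from 0, own range per panel) by strain (horizontal axis) in each of the 5 tissues. Points are arrays and bars their mean; in bnst and pag every array of 129S6/SvEvTac, C3H/HeJ and FVB/NJ lies above every array of A/J, C57BL/6J and DBA/2J.

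The pituitary gland held most of the other strain differences. Within it, 9 of 13 probe sets were called, from 7 of the 9 genes (background 31.9%). In the bnst 4 of 13 were called (background 19.3%), in the hypothalamus and pag 2 each (10.9% and 13.3%) and in the hippocampus 1 (10.6%). The share over all probe sets was thus highest in the pituitary gland too. The genes Cck, Cckbr, Vip, Adcyap1r1, Ntsr2 and Gal, 6 of 9, also had a called interaction of strain and region (background 11.3%). Without the pituitary gland limma called no interaction for any of the 13 probe sets, where 2.42% of all probe sets were called. Of the 13, 5 had an unadjusted p under 0.05, and the adjusted p of those 6 genes ran from 0.215 to 0.778.

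Gal differed between strains in the pituitary gland. C3H/HeJ had 487.8 and 445.6, DBA/2J 286.0 and 282.8, FVB/NJ 209.9 and 258.8, 129S6/SvEvTac 234.0 and 165.7, C57BL/6J 122.2 and 120.0, and A/J 115.0 and 84.2. The arrays of C3H/HeJ stood above all others, and those of C57BL/6J and A/J below all others. The mean of C3H/HeJ was 4.69-fold that of A/J (strain within the pituitary gland, adjusted p = 0.000607; interaction, 0.0269). Leaving out C3H/HeJ replicate 2, the array with oligodendrocyte transcripts, gave 0.00369 and 0.0484, and its replicate 1, with an oligodendrocyte sum of 103.4, had the higher Gal signal. The interaction call ended without C3H/HeJ pituitary replicate 1, A/J pituitary replicate 2 or A/J hippocampus replicate 2 (adjusted p up to 0.0701). Within the other 4 tissues the strains' Gal levels were not called, although C3H/HeJ was higher over all tissues by 0.49 (SE 0.14, adjusted p = 0.0183). That call was lost without replicate 2 of its hippocampus, hypothalamus or pag (adjusted p up to 0.165). With the floor at the 10th percentile it ended (0.146), as did the interaction (0.0784), while strain was called in the hippocampus (0.0415).

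Vip in the pituitary gland was set apart by 129S6/SvEvTac, with 142.5 and 104.6. FVB/NJ followed with 70.4 and 65.7, C57BL/6J with 55.1 and 48.01, DBA/2J with 33.5 and 47.5, C3H/HeJ with 31.7 and 34.2, and A/J with 16.9 and 29.3. Both arrays of 129S6/SvEvTac exceeded all others, and both of A/J lay below all others. The means of these strains differed 5.36-fold (strain within the pituitary gland, adjusted p = 1.88e-05; interaction, 0.00203). In the hippocampus 129S6/SvEvTac had the lowest mean instead, 243.9 against 405.3 in FVB/NJ. Strain was not called there (adjusted p = 0.632), nor in the hypothalamus (0.802) or pag (0.231). In the pag it was called with a floor of 50 (0.0109) and with log2(signal + 50) (0.0119). In the bnst, where all signals were at or under 84.0, the call (adjusted p = 0.0346) ended without any of 6 bnst arrays and with common-median scaling (0.0794), quantile normalization (0.0951), a floor of 50 (1) or log2(signal + 50) (0.246).

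Adcyap1r1 in the pituitary gland ran from C57BL/6J (155.2 and 144.0) through 129S6/SvEvTac (183.3 and 166.3), C3H/HeJ (182.4 and 179.8), DBA/2J (209.7 and 229.8) and A/J (226.0 and 217.8) to FVB/NJ (250.6 and 256.1). Replicates were close, and the arrays of FVB/NJ and of C57BL/6J overlapped no other strain. The mean of FVB/NJ was 1.69-fold that of C57BL/6J (strain within the pituitary gland, over all 6 strains, adjusted p = 3.61e-05; interaction, 0.00296). The other probe sets of the gene gave other orders there: by 1439042_at FVB/NJ was lowest (31.1) and 129S6/SvEvTac highest (51.0), and by 1450799_at C57BL/6J was highest (146.4) and DBA/2J lowest (72.5). Both were called between strains (adjusted p = 0.0225 and 0.0108), and neither had a called interaction (0.0815 and 0.154). In the pag C57BL/6J had the highest mean, 1206, and FVB/NJ had 1004, but strain was not called there (adjusted p = 0.228). C3H/HeJ was lower over all tissues by -0.12 (SE 0.040, adjusted p = 0.0395), a call lost on leaving out any of 8 single arrays.

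**Figure D4:**
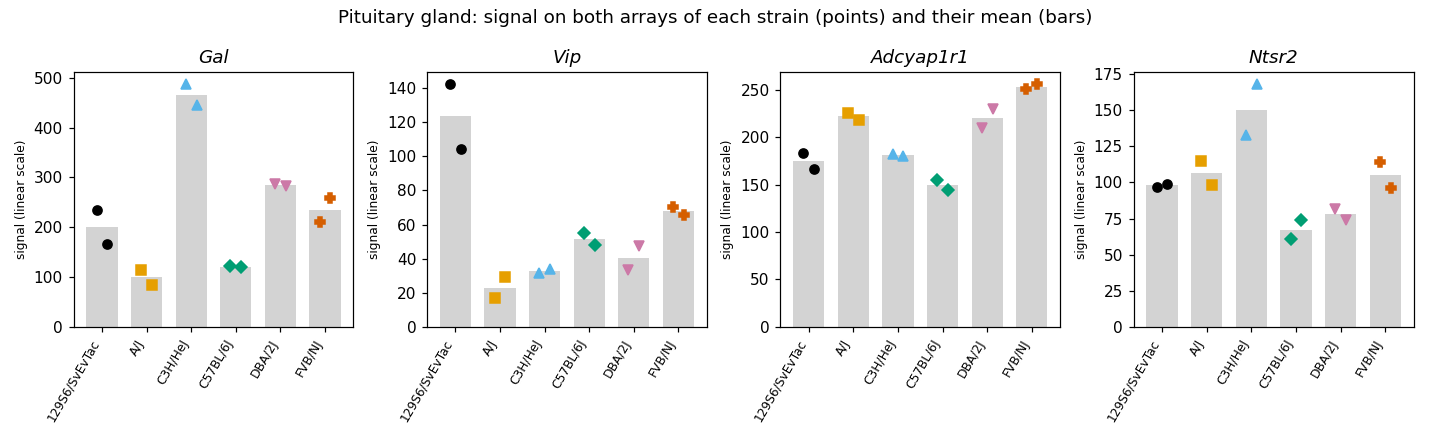
Signal of Gal, Vip, Adcyap1r1 and Ntsr2 (vertical axes, linear scale from 0) in the pituitary gland by strain (horizontal axis). Points are the 2 arrays of a strain and bars their mean; C3H/HeJ is highest for Gal and Ntsr2, 129S6/SvEvTac for Vip and FVB/NJ for Adcyap1r1.

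Cck, Cckbr and Adcyap1 were also called between strains in the pituitary gland, but at signals near the floor. Cck was 42.0 and 41.6 in C3H/HeJ and at most 28.0 elsewhere (adjusted p = 6.56e-07, and 6.04e-05 without C3H/HeJ replicate 2). Cckbr was 61.1 and 55.6 in A/J and at most 29.6 elsewhere (adjusted p = 7.67e-05). Both Cckbr probe sets had their highest pituitary mean in A/J, 46.7 for the second, which was not called (adjusted p = 0.134). The leading Adcyap1 probe set was highest in C57BL/6J, at 46.7 and 41.8, but its pairs of arrays disagreed in 129S6/SvEvTac (45.4 and 8.46) and A/J (3.19 and 24.3), and its interaction was not called (adjusted p = 0.0564). With a floor of 50 none of these 3 pituitary differences remained (adjusted p = 1 for each), nor did the interactions of Cck (0.0566) and Cckbr (0.472). The interaction of Cckbr (0.0278) also ended without either pituitary array of A/J or DBA/2J or without A/J pag replicate 1 (adjusted p up to 0.115). That of the leading Adcyap1 probe set was instead called by limma with a floor of 50 (adjusted p = 0.0137) and with log2(signal + 50) (0.0225). It was also called with a filter for signals over the floor on all arrays of a group (0.0383), and on leaving out any of 8 single arrays.

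Outside the pituitary gland, Cck differed between strains in the hypothalamus. The signals were 235.2 and 249.4 for C3H/HeJ, 190.0 and 231.8 for A/J, 163.4 and 236.5 for FVB/NJ, 160.0 and 164.8 for C57BL/6J, 161.4 and 156.7 for DBA/2J, and 141.5 and 139.3 for 129S6/SvEvTac (adjusted p = 0.0260). Both arrays of 129S6/SvEvTac lay below all others, and those of C3H/HeJ above all but 1 array of FVB/NJ. The call ended without either C3H/HeJ array, 129S6/SvEvTac replicate 2 or A/J replicate 2 (adjusted p up to 0.107) and with a common median (0.0738). Where Cck was most abundant, in the hippocampus, strain means lay between 1796 in C57BL/6J and 2127 in C3H/HeJ and were not called (adjusted p = 0.995). Over all tissues C3H/HeJ was higher by 0.38 (SE 0.064, adjusted p = 3.50e-05). C57BL/6J and 129S6/SvEvTac were lower by -0.21 and -0.20 (adjusted p = 0.0214 and 0.0308), calls lost without any of 3 and 5 single arrays, and a floor of 50 ended the calls for C3H/HeJ (0.0729) and 129S6/SvEvTac (0.608).

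Nts and Ntsr1 were called by limma between strains in none of 10 within-tissue tests, of which 1, that of Ntsr1 in the pituitary gland, had an unadjusted p under 0.05. The smallest adjusted p was 0.344 for Nts and 0.0884 for Ntsr1, both in the pituitary gland, and the latter was called with the floor at the 10th percentile (0.0261). Nts strain means in the hypothalamus ranged from 538.4 in C57BL/6J to 842.0 in C3H/HeJ, both arrays of the former lying under all others, but this was not called (adjusted p = 0.781). Ntsr1 in the pag was 131.2 on 129S6/SvEvTac replicate 1 and 49.5 on replicate 2, farther apart than the lowest and highest strain means there (42.4 and 90.3).

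Probe sets of the same gene did not always give the same order of tissues or strains. Over the 30 group means r was 0.93 between the Adcyap1 probe sets, 0.89 to 0.95 among the 3 of Adcyap1r1 and 0.65 for the pair of Cckbr. The leading Cckbr probe set was lowest in the pituitary gland (mean 21.3) and the second in the bnst (26.2), and 1450799_at of Adcyap1r1 was highest in the pag (284.6), where the other 2 were highest in the hypothalamus. The second Adcyap1 probe set was highest in C57BL/6J in bnst, hippocampus and hypothalamus (means 48.9, 30.6 and 215.6), the tissues where the leading one was lowest in that strain (88.5, 49.7 and 533.4). The former was called higher in C57BL/6J (log2 difference 0.34, SE 0.087, adjusted p = 0.00367), and the latter was not called (-0.11, adjusted p = 0.592). For Adcyap1r1, probe sets 1439042_at and 1450799_at were higher in C57BL/6J by 0.19 and 0.30 (adjusted p = 0.0449 and 0.00366), while the leading one was not called (-0.0003, adjusted p = 0.997). In the pituitary gland 1450799_at was highest in C57BL/6J (146.4), the strain in which the leading one was lowest. Vip, Cck, Nts, Ntsr1, Ntsr2 and Gal rest on a single probe set each, so that no such comparison could be made for them.

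Other genes of these systems gave a mixed picture. Over all probe sets 71.7% were called by region and 39.2% by strain, and the counts in these short lists are read against those shares. Of 5 related peptide genes tested, 3 were called by region, and Ghrh, the growth hormone-releasing hormone gene, had a mean of 131.4 in the hypothalamus and at most 28.1 elsewhere, while Gast lay under the floor on every array. Of 10 further receptors, 8 were called by region and 3 by strain. Cckar, the other CCK receptor, was read in the bnst and hypothalamus (means 60.7 and 51.4) and at no more than 22.5 elsewhere, the VIP receptor gene Vipr2 reached 42.5 in the bnst and Vipr1 at most 12.6, and the galanin receptors Galr1 and Galr2 had means from 28.4 to 48.7. Sort1, sortilin, which also binds neurotensin, was highest in the hippocampus (1653), where Nts was low. Ghrhr, from the receptor family of Adcyap1r1, had a mean of 1291 in the pituitary gland and under the floor in the other tissues.

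Of 17 G protein and effector genes 16 were called by region, 12 by strain and 3 by interaction, where 71.7%, 39.2% and 11.3% of all probe sets were called. Their median log2 difference was 0.45 between hypothalamus and pituitary gland, where the median of all probe sets was -0.12, and -0.15 between hippocampus and hypothalamus against -0.02. Adcy1 shared the high hippocampal level of Cck (mean 3704) and Plcb4 had its lowest level there (185.9). Of 3 peptide processing genes all were called by region: Pcsk1, a prohormone convertase, and Pam, which amidates peptides such as CCK and VIP, were highest in the pituitary gland (means 1264 and 1723), where Cck, Adcyap1 and Nts were near the floor. Galp, Galr3 and Pcsk2 were not analysed here. Pam was called by strain with an adjusted p of 2.40e-22.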

How the data were processed

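Total RNA was hybridized to 61 Affymetrix mouse arrays. Per the authors' methods, the TeraGenomics system turned the scans into signals by its absolute analysis; the deposited values are these intensity signals on a linear scale, with 5.36% under 0, and its version and scaling target were not given in the sources used here. Gene names came from the platform annotation: 34945 probe sets name 1 gene, 932 several and 9160 none.

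After 64 control probe sets were left out, signals were floored at 12.8 (the 20th percentile) and log2 transformed, and 972 probe sets at the floor on all arrays were dropped. limma 3.58.1 (R 4.3.3) fitted a mean for each of the 30 groups with a variance trend (31 residual degrees of freedom). Strain, region, interaction and within-tissue F tests, 10 comparisons of regions and 6 of a strain against the other 5 were adjusted by Benjamini-Hochberg over 44065 probe sets. Fold changes are on the floored scale. Alternatives changed the floor, pseudocount, scaling, filter, variance trend and replicate block, dropped each array or the pituitary gland, or used the methods' regression. The fit was tested on simulated data. Probe sets were named if annotated to 1 member gene; related genes, markers and the 3 most alike genes followed fixed lists and rules. Members and lists were chosen with earlier results of these data known. Per the authors' methods, replicates came from separate animals or pools; the small number of arrays limits precision. Base differences between strains under the probes were not examined. Figures were drawn with matplotlib under Python.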

Additional observations from a re-analysis of the deposited data

Results flagged for a closer look

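An interaction of strain and region was called by limma (adjusted over all probe sets) for 6 genes: Cck (adjusted p = 0.00405), Cckbr (0.0278), Vip (0.00203), Adcyap1r1 (0.00296), Ntsr2 (0.00646) and Gal (0.0269). None of these was called without the pituitary gland (adjusted p from 0.215 to 0.778). A floor of 50 ended those of Cck and Cckbr, and the floor at the 10th percentile ended that of Gal (adjusted p = 0.0784). The methods' regression ended those of Cck, Cckbr, Adcyap1r1 and Gal. For Vip, 129S6/SvEvTac had the highest pituitary mean (123.6) and the lowest hippocampal mean (243.9). Strain was not called for Vip within the hippocampus (adjusted p = 0.632). For the leading Adcyap1r1 probe set, FVB/NJ had the highest pituitary mean and C57BL/6J the highest mean in the pag. Strain was not called for it within the pag (adjusted p = 0.228). The other 2 probe sets of the gene had no called interaction (0.0815 and 0.154), and FVB/NJ had the lowest pituitary mean by 1439042_at (31.1). For Ntsr2, A/J had the lowest mean in bnst and pag and the second highest in the pituitary gland (106.8). For Gal and Cck the highest pituitary mean was that of C3H/HeJ (466.7 and 41.8), and for Cckbr that of A/J (58.4).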

How the results depend on the processing

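All 13 probe sets kept their region call under the alternatives run and on leaving out each array, except the second Cckbr probe set with a floor of 50. Some counts moved by over 1.5 times: probe sets with a strain effect fell from 7 to 4 with the floor at the 10th percentile, strain effects within a tissue from 18 to 11 with arrays scaled to a common median, and interactions from 6 to 0 without the pituitary gland, where the share over all probe sets fell from 11.3% to 2.42%. Common-median scaling moved the median of all probe sets by 0.10 and 0.12 on the log2 scale for bnst and hippocampus against the pituitary gland, and by under 0.1 otherwise, and turned the sign of the uncalled Vip difference between hippocampus and pag to 0.0854, which also ranged from -0.0762 to 0.0389 on leaving out single arrays. With each array left out in turn, the counts were 13 for region, 5 to 8 for strain, 5 to 7 for interaction, 16 to 21 within tissues, 111 to 117 between regions and 16 to 20 for a strain against the rest. The methods' regression on the signals as deposited ended the interactions of Cck, Cckbr, Adcyap1r1 and Gal (adjusted p from 0.199 to 0.716) and the strain call of Cck (0.148). With a floor of 50, strain was called for Vip (0.0281), Adcyap1 (0.00561) and Ntsr1 (0.0467) too; the cause was not tested. Replicate numbers are shared across groups. Between groups, the replicate differences had correlations of -0.416 to 0.412 (median -0.0054, 80 of 435 pairs of groups over 0.1). A median near 0 over all pairs cannot exclude that same-numbered arrays of some groups pair. In the bnst, replicate 1 held 2 mice and replicate 2 held 3 in every strain. With the replicate number as a block, the Gal strain call (0.0933) and the Ntsr1 difference between bnst and pag (0.0541) were lost. Vip differed between hypothalamus and both hippocampus and pag (0.0327 and 0.0329), strain was called for Adcyap1r1 over all tissues (0.0104), in the bnst (0.0303) and in the hippocampus (0.0383) and for Cck in the pag (0.0348), and C3H/HeJ bnst replicate 3 dropped out of the fit, since it alone carries its number.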
